A study of Mus musculus with 12 samples.

Results

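Fatty acid oxidation and ketone body synthesis in the mitochondria of the liver were followed through 36 genes in the livers of mice at 3 ages. The 36 genes were a list of enzymes and transporters, chosen by name, but with earlier results of these data known. All 36 were found among the 53465 genes of the count table. The table held RNA-seq counts of 12 livers of C57BL/6N mice, 1 animal per library, in 3 groups of 4, called young at 3 months of age, middle-aged at 12 months and aged at 18 months. No genotype or treatment separated the groups, and age was the only variable in the labels, so the comparisons ask how the pathway's transcripts differ with age. The design text of the series speaks of 3 replicates per age and the extraction notes describe young and old livers only, so how the middle-aged libraries were made is not given in the sources used here, nor are feeding state and time of day at collection.

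Total gene counts lay between 8124312 (young 3) and 10527159 (middle-aged 2) per library. The hepatocyte markers, among them albumin, held 768165 to 1028639 normalised counts in each library, and none of the 8 was missing at any age. Some libraries stood apart. In young 2, mitochondrially encoded RNAs took 19.2% of the gene counts, against 5.48 to 10.7% elsewhere. Spike-ins took 10.6% of all counts in young 2 and 6.23% in young 3, against 1.59 to 3.98% elsewhere. Young 3 had counts for 22284 genes and middle-aged 1 for 19982, where the other libraries had 16361 to 17563. Young 3 and middle-aged 3 held skeletal muscle markers at summed normalised counts of 514 and 672, where the other libraries held at most 38.7. Middle-aged 3 also held adipocyte markers at 559.8, and young 3 at 64.0, where the others held at most 16.6. The composition of the synthetic spike-in RNAs split the libraries into set A (replicates 1 and 2 of every age) and set B (replicates 3 and 4), so both sets hold 2 livers of each age.

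As background, long-chain fatty acids are joined to coenzyme A, passed to carnitine to cross the inner mitochondrial membrane, and returned to coenzyme A inside. Each turn of beta-oxidation then removes acetyl-CoA through a dehydrogenase, a hydratase, a second dehydrogenase and a thiolase, and the electrons of the first step leave through the electron transfer flavoprotein. In the liver, acetyl-CoA that is not burned is turned into ketone bodies, acetoacetate and 3-hydroxybutyrate, which leave the cell as fuel for other organs. The pathway is known to be induced by fasting, largely through the nuclear receptor PPAR alpha.

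Levels of different genes were compared as normalised counts per kb of annotated exon, averaged over the 12 livers. Acaa2, the thiolase that ends each turn for medium and long chains, stood highest, with a level of 7223 per kb (6573 to 8146 over the livers). Its lowest liver lay above the highest liver of any other member. Etfa, the alpha subunit of the electron transfer flavoprotein, followed with a level of 2194 per kb (1959 to 2449). Acsm1, a medium-chain acyl-CoA synthetase, had 1691 per kb (1304 to 1981) and overlapped Etfa. Acat1, the mitochondrial thiolase that acts in ketone body metabolism, had 1164 per kb (913 to 1385) and overlapped Acsm1. The other members formed a series in which neighbours overlapped, except that the lowest liver of Slc22a5 lay above the highest of Acad12. At the lower end were Slc22a5, the plasma membrane carnitine transporter, at 37.6 per kb (26.6 to 51.2), Acad12, an acyl-CoA dehydrogenase family member, between 15.4 and 24.3 over the livers, and Acot9, a mitochondrial thioesterase, at 17.3. Exon lengths were those of all annotated transcripts together, so a gene with long exons that the liver does not use appears lower on this scale. Of the 12 livers, every one had counts for every member.

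**Figure D1:**
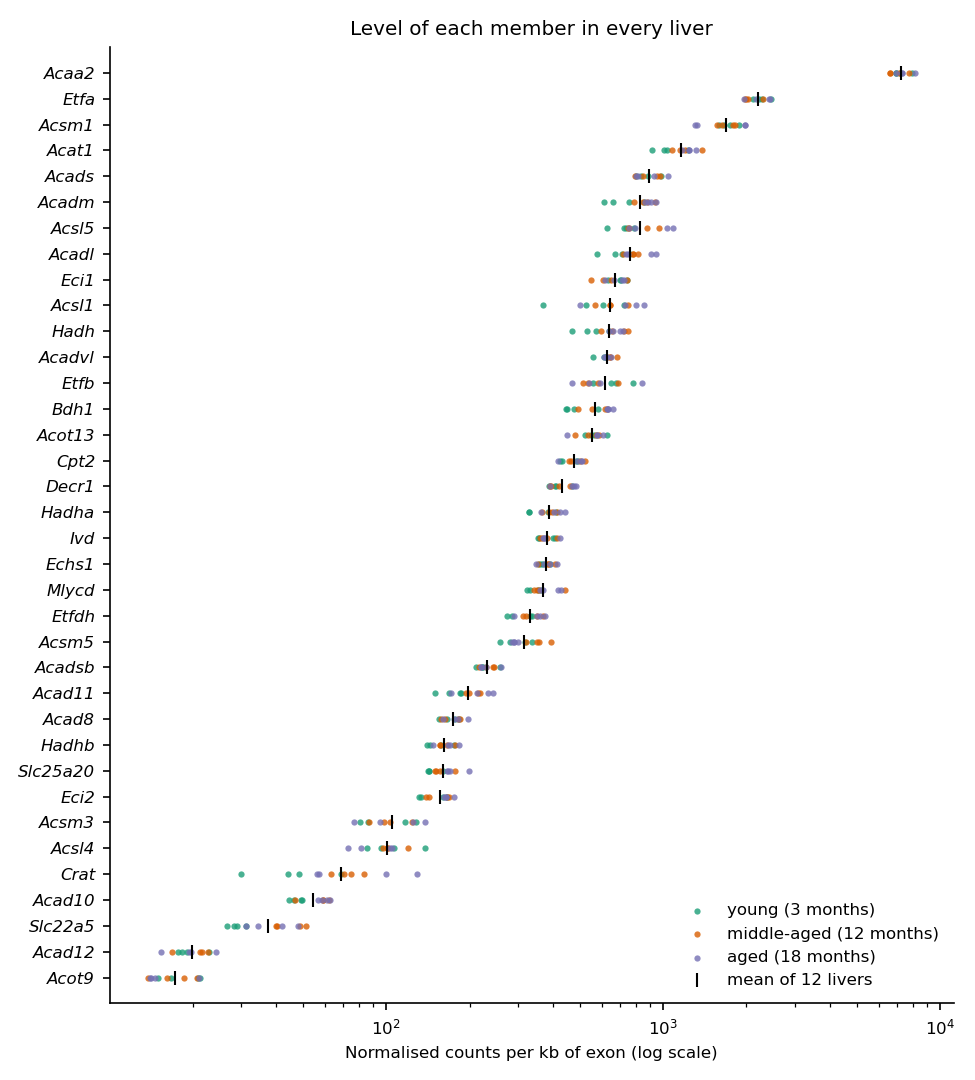
Level of each of the 36 members, as normalised counts per kb of exon on a log axis, with 1 point per liver coloured by age and a tick at the mean of the 12 livers. Acaa2 is alone at the top at 7223 per kb, and Acot9 is lowest at 17.3; the 3 colours are mixed for most members, while the 4 young points of Slc22a5 lie to the left.

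The start regions of 6 members are shown in 5 stretches: those of the 2 genes that passed the tests of age (Slc22a5 and Bdh1), the stretch between the neighbouring starts of Hadha and Hadhb, and the 2 member promoters with a match to a PPAR-type element. They are RefSeq sequence of GRCm38.p6, 5′ to 3′ on the gene's own strand, bases before the start only, and capitals mark the matches of 13 bases.
Slc22a5 (chr11:53891704-53891953, minus strand): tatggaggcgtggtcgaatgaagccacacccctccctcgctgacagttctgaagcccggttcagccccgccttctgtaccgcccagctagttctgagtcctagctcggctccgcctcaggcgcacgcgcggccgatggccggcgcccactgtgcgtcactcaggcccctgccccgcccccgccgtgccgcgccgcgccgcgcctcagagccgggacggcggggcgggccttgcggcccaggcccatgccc
Bdh1 (chr16:31422047-31422279, plus strand): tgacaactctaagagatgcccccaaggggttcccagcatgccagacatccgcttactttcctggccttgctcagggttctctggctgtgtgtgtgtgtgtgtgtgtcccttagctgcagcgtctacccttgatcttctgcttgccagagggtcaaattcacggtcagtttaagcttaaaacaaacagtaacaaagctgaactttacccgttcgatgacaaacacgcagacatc
Hadha and Hadhb (chr5:30155163-30155247, shown on the plus strand, that of Hadhb): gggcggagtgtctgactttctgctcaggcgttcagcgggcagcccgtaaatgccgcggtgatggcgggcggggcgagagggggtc
Echs1 (chr7:140116477-140116671, minus strand): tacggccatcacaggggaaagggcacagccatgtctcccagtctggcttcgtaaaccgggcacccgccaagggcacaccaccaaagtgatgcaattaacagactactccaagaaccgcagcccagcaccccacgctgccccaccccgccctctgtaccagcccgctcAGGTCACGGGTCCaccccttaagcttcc
Etfa (chr9:55512244-55512493, minus strand): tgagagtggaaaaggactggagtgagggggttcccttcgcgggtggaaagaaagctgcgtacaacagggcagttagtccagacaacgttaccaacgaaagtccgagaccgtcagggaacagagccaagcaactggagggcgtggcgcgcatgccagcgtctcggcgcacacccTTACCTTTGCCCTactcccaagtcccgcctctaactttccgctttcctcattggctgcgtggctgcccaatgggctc
The Slc22a5 stretch was 73.6% G and C and that of Bdh1 49.8%, where the 32536 RefSeq promoter windows had a median of 52.4% over 250 bases and the 31 member windows found a median of 58.8%. The element searched was the nuclear receptor half-site AGGTCA in direct repeat with 1 base between the copies (AGGTCANAGGTCA), on both strands. With up to 2 mismatches it occurred in 2 of 31 member windows, Echs1 and Etfa, against 3.25% of all windows of 250 bases, and without a mismatch in 0 of 31 against 0.0338%. The half-site alone occurred in 4 of 31 (Acadm, Acadvl, Acsm1 and Echs1) against 14%, with the repeat in Echs1 among them. The E-box CACGTG, the binding motif of the clock proteins, occurred in 1 of 31 (Acsm5) against 6.04%. None of the 3 motifs occurred in the printed stretches of Slc22a5, Bdh1 or Hadha and Hadhb, which says only that these letters are not in these windows.

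With DESeq2 fitted across all genes and an adjusted p under 0.05, 2 of the 36 members differed between the 3 ages, Slc22a5 and Bdh1, where 6.96% of all genes tested did. Between aged and young livers 1 member rose, Bdh1, and 0 fell, where 3.58% of all genes were called. Between middle-aged and young livers 1 member rose, Slc22a5, and 0 fell, where 6.41% of all genes were called. Between aged and middle-aged livers 0 members were called by DESeq2 and 0 by edgeR, with 1 at an unadjusted p under 0.05 (Acsm5), where 1.14% of all genes were called. In the order of these tests, the shares of members called were 5.56, 2.78, 2.78 and 0%. They lay below those of all genes, but rest on 2, 1, 1 and 0 members, too few to set them apart from the background.

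Below the threshold, the differences of the members were small and mostly positive. The log2 fold change of aged against young was positive for 28 of 36, with a median of 0.093 where the median of all genes was -0.0003, and 12 of 36 had an unadjusted p under 0.05, all of them higher, where 7.92% of all genes were higher at that p. The 4 aged livers lay above all 4 young livers in 5 members (Slc22a5, Slc25a20, Acadm, Acad10 and Bdh1) and below them in 0, where 3.84% of all genes lay above. For middle-aged against young, 25 of 36 were positive with a median of 0.084 (all genes, 0.0065), 8 had an unadjusted p under 0.05 and a positive change where 11.1% of all genes did, and 3 did not overlap (Slc22a5, Acadvl and Acad11) where 7.99% of all genes lay above. Within the spike-in sets, 2 livers against 2, aged against young was positive for 30 of 36 members in set A and 24 in set B. The sign was the same in both sets for only 22 of the 36. Middle-aged against young was positive for 32 in set A but 17 in set B, so the positive balance at middle age was seen in set A only. Here 17 of the 36 had the same sign in both sets. The difference between the sets was not tested, and set A holds young 2, the lowest of the 12 livers in 18 members. The comparisons of aged and of middle-aged livers with young use the same 4 young livers. The 36 genes also share their libraries, so a library that is low in many members moves many of these counts at once. The 95% interval of the fold change lay within 1.5-fold in either direction for 30 members in aged against young, 33 in middle-aged against young and 34 in aged against middle-aged. It lay within 2-fold for 35, 35 and 36.

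**Figure D2:**
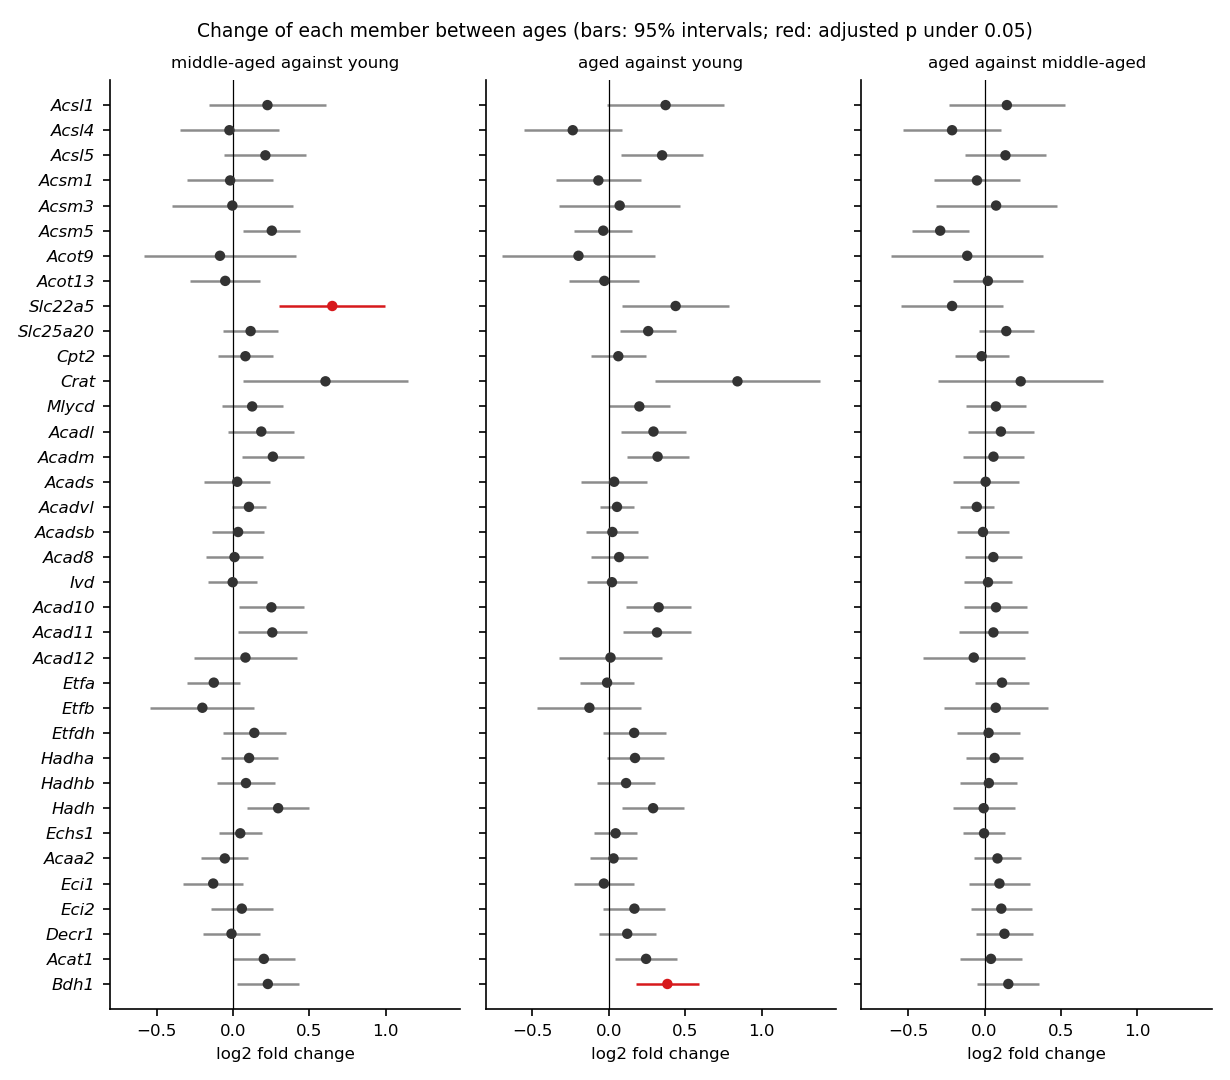
Log2 fold change of each member in the 3 comparisons of ages, with bars for the 95% interval and red for an adjusted p under 0.05 in DESeq2. Red marks only Slc22a5 in middle-aged against young (0.65) and Bdh1 in aged against young (0.38), and most other bars cross or come close to 0.

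The scale mattered for the number of calls. Scaling by total gene counts called 10 members in aged against young and 5 in middle-aged against young, with 33 of 36 positive in each. The calls over all genes rose as well, to 787 of 12978 and 1000 of 11883 tested. With DESeq2's own scaling they were 484 of 13527 and 727 of 11333. That scaling put the median of all genes with a mean of at least 10 counts at 0.12 and 0.12, where DESeq2's own put it at 0.0079 and 0.0078. Relative to the median gene, the members' median was 0.084 and 0.075 under that scaling and 0.085 and 0.076 under DESeq2's own.

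Carnitine carries the acyl groups, and the gene that brings it into the cell gave the largest called difference among the members. Slc22a5 had normalised counts of 89.2, 95.5, 81.8 and 86.9 in the young livers, 149.9, 157, 123 and 124 in the middle-aged livers and 105, 129, 148 and 95.6 in the aged livers. The young livers were the lowest 4 and did not overlap either older group, while the aged livers ran from just above the young into the middle-aged range. The mean was 88.3 ± 5.71 (SD, n = 4) in young livers, 139 ± 17.6 in middle-aged livers and 119 ± 23.5 in the aged. From young to middle-aged it rose by 0.65 on the log2 scale (SE 0.18, adjusted p = 0.00937, DESeq2), with all 4 middle-aged livers above all 4 young. Aged against young it was 0.44 (SE 0.18, adjusted p = 0.163, DESeq2), and aged against middle-aged -0.21 (SE 0.17, adjusted p = 0.799). The rise in middle-aged livers was not called without young 3 (adjusted p = 0.0564, DESeq2) or without middle-aged 2 (0.0669), and it was 0.74 in set A and 0.54 in set B, where 2 livers met 2 and neither was called. Genes of the circadian clock had a pattern unlike that of Slc22a5, with the middle-aged livers apart from both other ages. The 16 genes, all detected in each age, summed to 4598 to 5609.8 normalised counts in the middle-aged livers. The sums were 3546 to 3934 in the young and 3487 to 4206 in the aged livers. In middle-aged against young, 6 of 15 tested were called (5 higher, 1 lower), where 6.41% of all genes were. In aged against middle-aged 8 of 14 were called (3 higher, 5 lower), where 1.14% of all genes were. In aged against young it was 1 of 16, where 3.58% of all genes were called. The part of sampling time in the Slc22a5 difference was not tested.

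The other members of this step hand acyl groups across the membrane or govern the handover. Cpt2, which returns acyl groups from carnitine to coenzyme A, was the highest of them per kb, with normalised counts of 1161, 1015, 1034 and 1182 in young livers, 1248, 1201, 1113 and 1090.4 in middle-aged livers and 1205, 1218, 1173 and 998 in the aged. The ages overlapped throughout, and the log2 fold change in aged livers was 0.063 (95% interval -0.12 to 0.24). Slc25a20, the carnitine-acylcarnitine translocase of the inner membrane, had 693, 686, 689.6 and 774 in young and 826, 808, 967 and 802 in aged livers. Its aged livers all lay above its young livers, by a log2 fold change of 0.26 that missed the threshold (SE 0.093, adjusted p = 0.0943, DESeq2). Mlycd, malonyl-CoA decarboxylase, which removes the inhibitor of the carnitine step, had a log2 fold change of 0.20 in aged livers (95% interval 0.00067 to 0.40). It was not called (adjusted p = 0.311, DESeq2), and the aged and young livers overlapped. The change was 0.37 in set A and 0.027 in set B.

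Crat, carnitine acetyltransferase, which moves acetyl groups between carnitine and coenzyme A, varied most of all 36 members between livers of 1 age (SD of log2 counts 0.454, where the median member had 0.141). Its normalised counts were 260.1, 162, 238 and 370.0 in young livers, 380.3, 447, 342 and 401 in middle-aged livers and 304, 309, 696 and 539.9 in the aged. Young 2 was the lowest of the 12 and aged 3 the highest, with a ratio of 4.30 between them. The aged livers fell into a low pair (replicates 1 and 2, spike-in set A) and a high pair (replicates 3 and 4, set B). Its log2 fold change in aged against young livers was 0.84 (SE 0.28, adjusted p = 0.0590, DESeq2), the largest of the members. It was 0.54 within set A and 1.02 within set B, called in set B only. In middle-aged against young the log2 fold change of Crat was 0.61 (SE 0.28, adjusted p = 0.172, DESeq2). There the sets went the other way, with 0.97 in set A (adjusted p = 0.0210, DESeq2, called with 2 livers against 2) and 0.27 in set B. The differences between the sets were not tested.

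**Figure D3:**
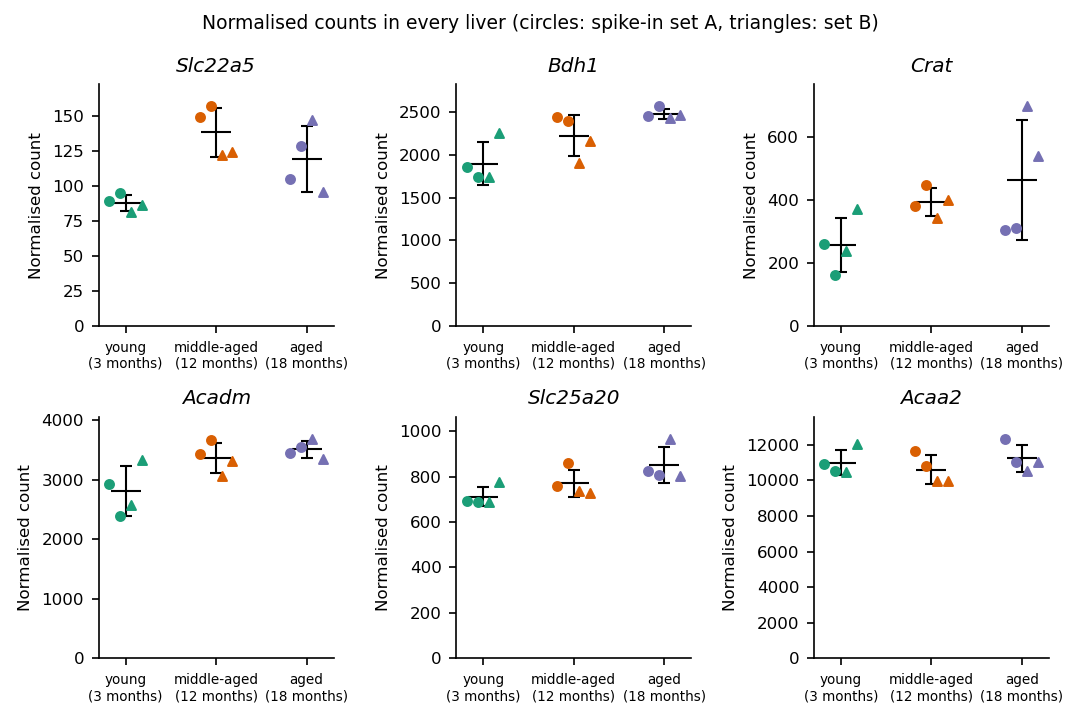
Normalised counts in every liver for Slc22a5, Bdh1, Crat, Acadm, Slc25a20 and Acaa2, from 0, with the mean and SD of each age; circles are spike-in set A and triangles set B. The 4 young livers lie below all others in Slc22a5 and below the aged livers in Bdh1 and Slc25a20, the aged livers of Crat split by spike-in set, and the ages of Acaa2 overlap.

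Fatty acids enter the pathway through acyl-CoA synthetases, of which 0 of 6 were called by DESeq2 in any comparison over the 12 livers (0 by edgeR in the 3-age test); 1 had an unadjusted p under 0.05 in aged against young (Acsl5) and 1 in middle-aged against young (Acsm5). Acsm1, the highest per kb, had normalised counts of 3634, 3811, 3480.0 and 4117 in young livers, 3567, 3908, 3415 and 3964 in middle-aged livers and 4320.4, 4306, 2844 and 2885 in the aged. The aged livers held both the highest pair and the lowest pair of the 12. Acsl1, the main long-chain synthetase of the liver, had 7571, 3865, 5505 and 6388 in young and 5265, 7648, 8926 and 8355 in aged livers, and its log2 fold change of 0.37 had an interval of -0.0094 to 0.75. Acsl5, another long-chain synthetase, had a log2 fold change of 0.35 in aged livers (SE 0.14, adjusted p = 0.141, DESeq2), and was called without aged 1 (0.0370) or when scaled by total gene counts (0.0453). In the 2 aged and 2 young livers of set B, DESeq2 called 3 of the 6, Acsl1 higher (0.54, adjusted p = 0.000435), Acsl5 higher (0.48, adjusted p = 0.000592) and Acsm1 lower (-0.41, adjusted p = 0.0369). In set A the log2 fold changes of Acsl1, Acsl5 and Acsm1 were 0.18, 0.18 and 0.22 with no call. Of all genes tested, 479 of 11411 were called in the set B fit and 137 of 11066 in the set A fit. The difference between the sets was not tested. Acsl4, which prefers arachidonic acid, had a log2 fold change of -0.24 (95% interval -0.56 to 0.087), the most negative of the members. Acsm5, a further medium-chain family member, was highest in the middle-aged livers, at 1354, 1498, 1216 and 1336, where the young had 1206, 981, 1063 and 1276 and the aged 1139, 1097, 1098 and 1086. All 4 aged livers lay below all 4 middle-aged, by a log2 fold change of -0.29 (SE 0.10, adjusted p = 0.114, DESeq2). Of the exon bases of Acsm3, 39.8% are shared with Eri2 on the opposite strand, and of Acsl5 8.31% with Zdhhc6; the strand setting of the counting is not given in the sources used here.

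The thioesterases, which release free fatty acids from coenzyme A, were not called in any comparison. Acot13, the higher of the pair, had normalised counts of 388, 465, 409 and 418 in young livers, 426, 438, 358 and 399.9 in middle-aged livers and 429, 334, 430.0 and 452 in the aged. The 3 ages covered the same range, and the interval of the aged difference was -0.26 to 0.20. Acot9 had 31.4 to 48.4 normalised counts over the 12 livers, too few to bound its change closely (95% interval -0.70 to 0.31 in aged livers).

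Acyl-CoA dehydrogenases carry out the first step of each turn and differ in the chains they take. Of the straight-chain enzymes Acads, for short chains, was highest per kb, with normalised counts of 2002, 1811, 1883 and 2234 in young livers, 2204, 2164, 1924 and 1798 in middle-aged livers and 2371, 2101, 1811 and 1849 in the aged. These ranges overlapped and the aged difference was 0.036 (95% interval -0.18 to 0.25). Acadm, for medium chains, had 2937, 2396, 2575 and 3339 in young livers, 3427, 3671, 3067 and 3322 in middle-aged livers and 3448, 3549, 3690.5 and 3357 in the aged. Every aged liver lay above every young liver, with aged 4 and young 4 nearest to each other, and the log2 fold change of 0.32 just missed the threshold (SE 0.10, adjusted p = 0.0532, DESeq2). Acadl, for long chains, had a log2 fold change of 0.29 (SE 0.11, adjusted p = 0.119). Acadvl, for very long chains, varied least of the 36 between livers of 1 age (SD of log2 counts 0.0536), and its aged difference had an interval of -0.057 to 0.16. Of its exon bases 42.9% are shared with Dvl2 on the opposite strand, which had 307 counts over the 12 libraries where Acadvl had 20503.

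The 3 dehydrogenases that degrade branched-chain amino acids had similar levels at all ages. Ivd, isovaleryl-CoA dehydrogenase of leucine breakdown, had normalised counts of 2200.4, 1956, 1944 and 2249 in young livers, 2090.0, 2277, 1971 and 2007 in middle-aged livers and 2344, 2042, 2027 and 2066 in the aged. These ranges overlapped. The aged differences of Ivd, Acadsb and Acad8 were 0.021, 0.024 and 0.068, each with an interval within 1.5-fold.

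Of the less studied members of the family, Acad11 was highest per kb, with normalised counts of 1831, 1467, 1659 and 1817 in young livers, 2145, 2098, 1952 and 1907 in middle-aged livers and 1677, 2288, 2378 and 2091 in the aged. The middle-aged livers all lay above the young, while aged 1 lay inside the young range. Its log2 fold changes of 0.26 and 0.32 did not pass (adjusted p = 0.159 and 0.102, DESeq2). Acad10 and Acad12 lie next to each other on the minus strand of chromosome 5 (chr5:121621026-121660514 and chr5:121596775-121618938). Acad10 had 301, 271, 299 and 283 in young livers, 359, 358, 283 and 376 in middle-aged livers and 370.3, 344, 379 and 355 in the aged, with every aged liver above every young one. Acad12 had 149.7, 125, 119.7 and 115 in young livers, 139, 148, 141 and 110.2 in middle-aged livers and 159, 129, 127 and 100.1 in the aged, which overlapped. Acad10 had a log2 fold change of 0.33 in aged against young, short of the threshold (SE 0.11, adjusted p = 0.0621, DESeq2), and Acad12 had 0.012 (SE 0.17). Per kb, Acad10 was at 2.15 to 3.81 times Acad12 over the 12 livers, with group means of 2.45 ± 0.248 (SD, n = 4) in young and 3.10 ± 0.554 in aged livers. The genes are paralogs, and how reads that fit both were counted is not given in the sources used here.

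Electrons from these dehydrogenases pass to the electron transfer flavoprotein (Etfa and Etfb) and then to its oxidoreductase (Etfdh), and no gene of the 3 was called. Etfa had normalised counts of 4063, 4493, 3869.8 and 4176 in young livers, 3723, 4213, 3639 and 3646 in middle-aged livers and 4478, 3595, 3974 and 4431 in the aged, with log2 fold changes of -0.13 and -0.011 and an interval of -0.19 to 0.16 for the latter. The ages overlapped. Etfb ran from 545 to 978, both of these extremes in aged livers, and its interval of -0.47 to 0.21 was among the widest. It shares 53.0% of its exon bases with Gm45233 on the same strand, which was listed with 0 counts. Etfdh had an aged difference of 0.17 (95% interval -0.039 to 0.37).

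Hadha and Hadhb encode the alpha and beta subunits of the mitochondrial trifunctional protein, which performs the last 3 steps of a turn on long chains. The genes lie head to head on chromosome 5, Hadha on the minus strand (chr5:30118304-30155162) and Hadhb on the plus strand (chr5:30155248-30184593), with the 85 bases shown above between their annotated starts. Hadha had normalised counts of 3357, 2863, 2856 and 3581 in young livers, 3471, 3604, 3182 and 3369.5 in middle-aged livers and 3514, 3875, 3704 and 3172 in the aged. Hadhb had 1041, 927, 949 and 1155 in young livers, 1171, 1094, 1029.6 and 1031 in middle-aged livers and 976, 1105, 1209 and 1118 in the aged. Neither was called, with aged log2 fold changes of 0.17 (SE 0.10) and 0.11 (SE 0.10). Per kb, Hadha was at 2.14 to 2.72 times Hadhb, with group means of 2.35 ± 0.0673 (SD, n = 4) in young livers, 2.38 ± 0.117 in middle-aged livers and 2.46 ± 0.273 in the aged, so the ratio moved by less than its spread.

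Of the separate enzymes for the later steps, Acaa2 had normalised counts of 10912, 10553, 10498 and 12038 in young livers, 11677, 10788, 9990.3 and 9965 in middle-aged livers and 12349, 11051, 10522 and 11059 in the aged. The ages overlapped, and its aged difference of 0.032 had an interval of -0.12 to 0.19. Echs1, the short-chain hydratase, was as closely bounded (-0.095 to 0.18). Hadh, the dehydrogenase of the third step for short and medium chains, had 2647, 2338, 2856 and 3179.7 in young livers, 3713, 3598, 2975 and 3250.3 in middle-aged livers and 3168, 3283, 3467 and 3566 in the aged. Its log2 fold changes of 0.30 and 0.29 missed the threshold (adjusted p = 0.0611 and 0.0957, DESeq2), and young 4 lay within the range of both older groups. For middle-aged against young it was 0.55 in set A (adjusted p = 0.0422, DESeq2, called with 2 livers against 2) and 0.034 in set B.

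The enzymes that deal with the double bonds of unsaturated fatty acids were not called in any comparison. Eci1, an enoyl-CoA isomerase and the highest of them per kb, had normalised counts of 1503, 1342, 1483 and 1581 in young livers, 1569.8, 1287, 1168 and 1384 in middle-aged livers and 1515, 1309, 1417 and 1542 in the aged. Its ranges overlapped, and the aged difference had an interval of -0.23 to 0.17. Those of the second isomerase, Eci2, and of the dienoyl-CoA reductase, Decr1, were -0.034 to 0.37 and -0.065 to 0.31.

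Bdh1, 3-hydroxybutyrate dehydrogenase, which makes 3-hydroxybutyrate from acetoacetate as the last step of ketone body synthesis, was the member called in aged livers. Its normalised counts were 1853, 1737, 1747 and 2260.1 in young livers, 2439.5, 2399, 1909.9 and 2158 in middle-aged livers and 2452, 2566, 2436 and 2465 in the aged. All 4 aged livers lay above all 4 young, the young liver nearest to them being young 4, and the middle-aged livers overlapped both. The means were 1899 ± 246 (SD, n = 4), 2227 ± 245 and 2479.7 ± 58.7, so the aged livers were also the closest together. In aged against young livers it rose by 0.38 on the log2 scale (SE 0.10, adjusted p = 0.0125, DESeq2), with a 95% interval of 0.18 to 0.59. In middle-aged against young the log2 fold change was 0.23 (adjusted p = 0.171, DESeq2). The call was lost in edgeR (adjusted p = 0.0880) and in DESeq2 without young 1 (0.0502), young 2 (0.0862), young 3 (0.0894) or aged 2 (0.0641), while the change itself stayed between 0.29 and 0.49 over 22 alternatives. Within spike-in set A it was 0.49 and within set B 0.29, called in neither with 2 livers against 2. An antisense gene, Gm15743, shares 13.7% of its exon bases and had 9 counts in all.

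Acat1, whose thiolase works at the start and the end of ketone body metabolism, had normalised counts of 3867, 3431, 3801 and 4637 in young livers, 5204, 4523, 4057 and 4329 in middle-aged livers and 4395, 4653, 4666 and 4932 in the aged. Young 4 lay inside the range of both older groups, and the aged difference of 0.24 was not called (SE 0.10, adjusted p = 0.187, DESeq2).

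Several enzymes of the pathway are outside the 36, and 57 further genes of mitochondrial and peroxisomal oxidation, ketone bodies, fatty acid uptake and its control were taken as a second list. Cpt1a, the outer membrane carnitine palmitoyltransferase that limits the rate of the pathway, had normalised counts of 1971, 1714, 1639 and 2379 in young livers, 2337, 2851, 2223 and 2529.7 in middle-aged livers and 1979, 2838, 2398 and 2041 in the aged, which overlapped. Its log2 fold changes of 0.26 in aged and 0.37 in middle-aged livers were not called (adjusted p = 0.374 and 0.105, DESeq2).

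Of the second list, 2 of 53 tested rose and 1 fell in aged against young livers (median log2 fold change 0.12), 4 of 50 rose and 0 fell in middle-aged against young (0.16), and 0 of 49 rose and 1 fell in aged against middle-aged (-0.0011). Of all genes, 3.58%, 6.41% and 1.14% were called in these comparisons, so the list lay near the background. The fatty acid translocase Cd36 (1.74, adjusted p = 0.0160, DESeq2) and the monocarboxylate transporter Slc16a7 (0.95, adjusted p = 0.0163) rose in aged against young livers. Cd36 had 261, 432, 1502 and 1132 normalised counts in the aged livers, so aged 3 and aged 4 carried most of its rise. Acsm2, of the medium-chain synthetase family, fell by 2.05 (adjusted p = 0.0261, DESeq2), from 14.9, 30.6, 14.2 and 15.6 normalised counts in young to 9.03, 5.78, 0.874 and 2.68 in aged livers. In middle-aged against young, Slc16a7 (0.79), the peroxisomal reductase Decr2 (0.30), the receptor Ppara (0.76) and the coactivator Ppargc1b (1.18) rose (adjusted p = 0.0446, 0.0361, 0.0393 and 0.00278, DESeq2). Ppargc1b then fell by 1.16 from middle-aged to aged livers (adjusted p = 0.00763, DESeq2).

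The levels of the 36 members differed between libraries of the same age. Young 2 was the lowest of all 12 livers in 18 members and the lowest young liver in 24, and it was also the library with the highest share of mitochondrially encoded RNA. Of the 36 members, 12, 5, 4 and 24 stood above their own 12-liver median in young 1 to young 4, so young 4 lay apart from the other young livers. The same count was 32, 28, 7 and 13 in the middle-aged livers and 21, 19, 23 and 28 in the aged. The members together took 0.732 to 0.889% of the nuclear gene counts in young, 0.838 to 0.942% in middle-aged and 0.875 to 0.979% in aged livers, with young 2 lowest and aged 3 highest. Without young 2, 0 members were called in aged against young livers and 1 in middle-aged against young. Of all genes, 258 and 349 were then called, against 484 and 727 with all 12 livers. Without young 3, 0 and 0 members were called (337 and 409 of all genes). Without young 4, 5 and 7 members were called (506 and 621 of all genes). Without middle-aged 3, whose muscle and adipocyte markers stood out, 2 and 3 members were called (421 and 430 of all genes). In bulk tissue, fewer cells of a type and less RNA per cell cannot be told apart. The red blood cell genes (5 of 5 detected in every age) summed to 22967 to 86366 normalised counts in the young group, 12815 to 49844 at middle age and 9671 to 21229.6 in the aged group, with 2 of 5 called lower in aged against young and young 2 the highest. Their part, and that of mitochondrially encoded RNA, in the members' differences was not tested.

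**Figure D4:**
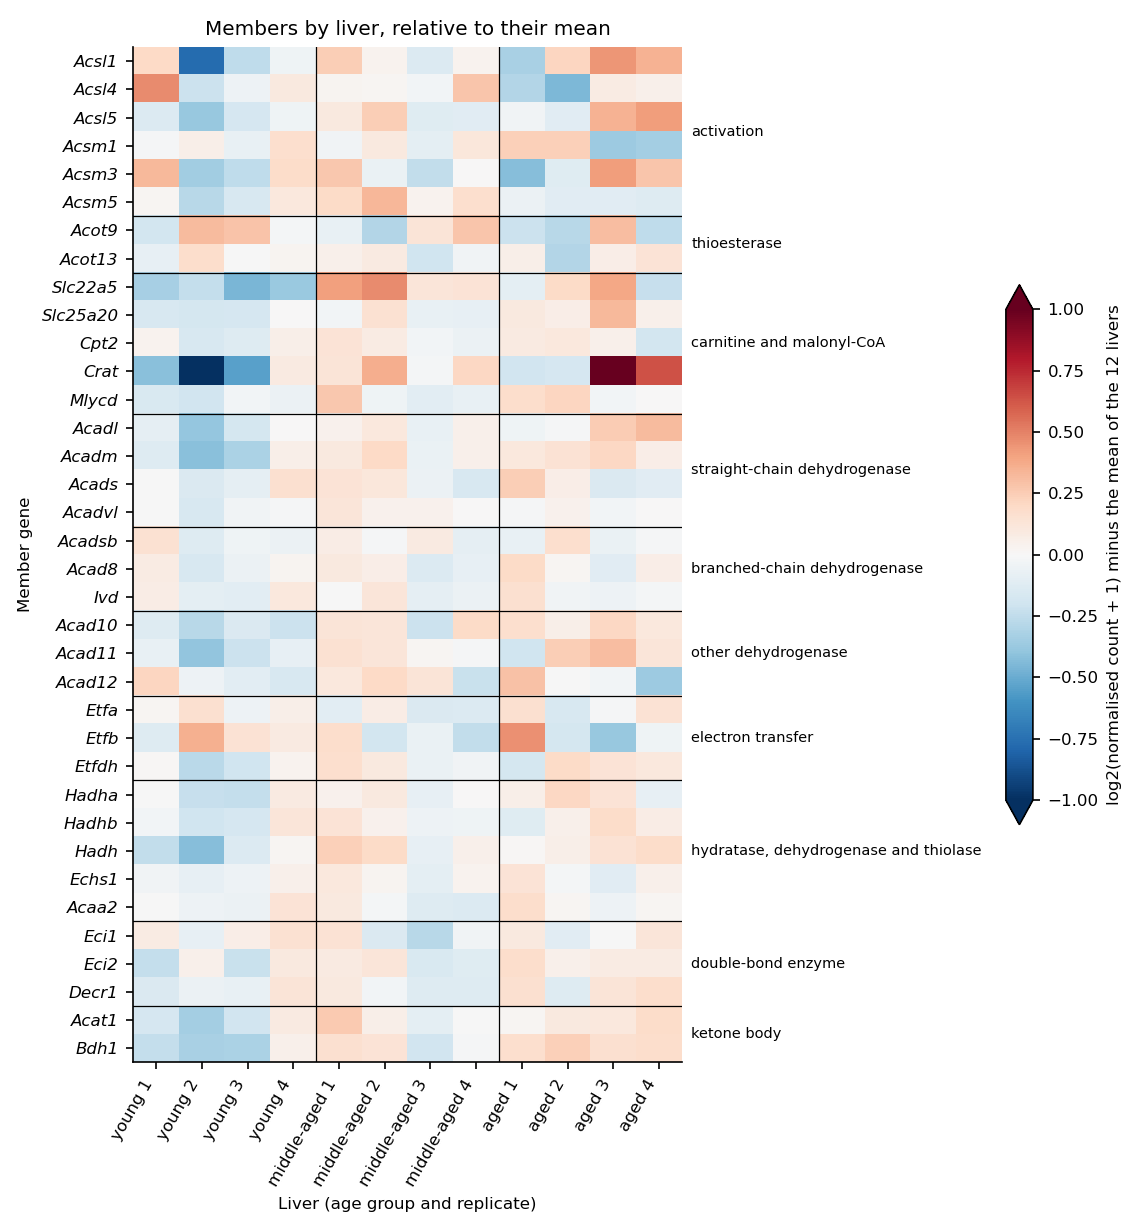
Each member in each liver, as log2(normalised count + 1) minus the member's mean over the 12 livers, grouped by role and coloured from blue (lower) to red (higher), with colours ending at -1 and 1. The column of young 2 is blue in most rows, Slc22a5 is blue in the 4 young livers, and Crat runs from its lowest in young 2 to its highest in aged 3.

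The 4 aged livers differed from each other along the spike-in sets in a few members. In 3 members (Acsl5, Acsm3 and Crat) both set B livers lay at least 1.3-fold above both set A livers, and in 1 (Acsm1) at least 1.3-fold below. Of all genes tested, 8.17% were split so in the aged livers, so the 4 of 36 lay near the background. The number depended on the fold asked for: at 1.25-fold, which was tried first, Acsl4 was split as well (10.2% of all genes), at 1.2-fold Acadl too (13.2%), from 1.35 to 1.45-fold only Crat and Acsm1 were, and at 1.5-fold only Crat (4.25%). In the young and in the middle-aged livers 0 of 36 members were split in this way, where 5.62% and 7.79% of all genes were. Acsm3 had 377, 468, 679 and 616 in the aged livers, where the first pair is set A. Set B livers had a mean of Crat 2.01 times that of set A and of Acsm1 0.664 times. Of 18 genes known to respond to PPAR alpha or to fasting, 8 were split at 1.3-fold with set B higher. Another 3 were split with set B lower (Angptl4, Creb3l3 and Pck1), so the list did not move in 1 direction. Among the 8 with set B higher, Cyp4a10, a fatty acid omega-hydroxylase, had 262, 880.4, 3422 and 2462 in the 4 aged livers. Pdk4, the kinase that restrains pyruvate dehydrogenase, had 51.2, 40.5, 182 and 122. Of the 18, 5 were called higher in aged against young livers and 0 lower, where 3.58% of all genes were called. The members Bdh1 and Acadm were not split, with set B at 0.977 and 1.01 times set A. The sets are a grouping of libraries by their spike-ins, and with 2 aged livers in each, the set and the animals in it cannot be told apart.

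**Figure D5:**
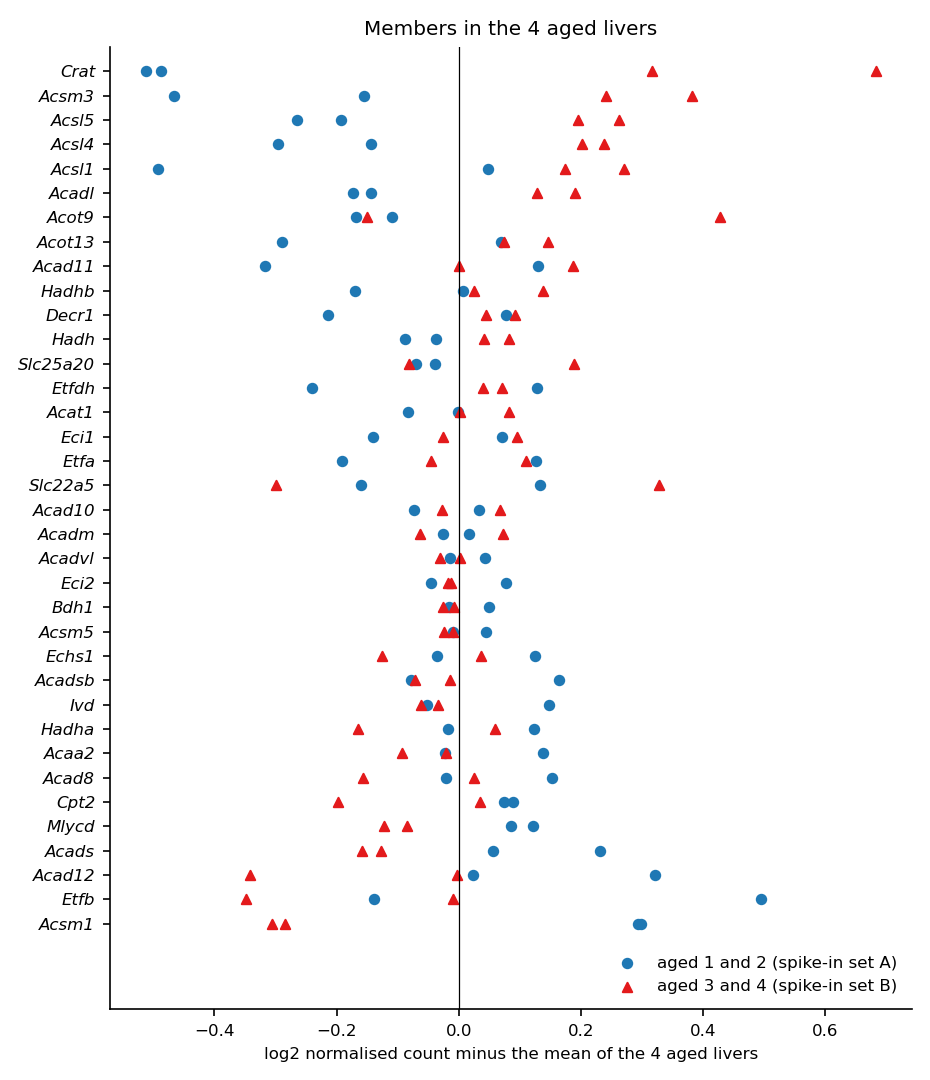
The 36 members in the 4 aged livers, as log2 normalised count minus the mean of the 4, with circles for spike-in set A and triangles for set B, ordered by the ratio of the sets. Circles and triangles separate widely for Crat, Acsm3 and Acsl5 at the top and for Acsm1 at the bottom, and are mixed for Bdh1 and Acadm in the middle.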

How the data were processed

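The authors deposited RNA-seq values of 12 mouse livers as whole-number counts per gene, not normalised, with 92 spike-in transcripts in the same table. The submitters' processing notes name STAR 2.5.2b, SAMtools 1.9, featureCounts, R 3.6.3, edgeR 3.28.1 and DESeq2 1.26.0 and the builds mm10 and GRCm38, without roles; strand setting and annotation are not given in the sources used here. Gene symbols, positions and exon lengths came from GENCODE M21 (53360 of 53465 identifiers matched).

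Counts were fitted with DESeq2 1.42.0 in R 4.3.3 on all 12 samples with age as the only term, by Wald tests for each pair of ages and a likelihood ratio test for the 3 ages, with Benjamini-Hochberg adjustment over all genes tested (threshold 0.05), the default independent filter and Cook's rule, and spike-ins left out. Normalised counts are counts over DESeq2's size factors, and means carry the SD of 4 livers. Intervals are 95% Wald intervals of the log2 fold change. With 8124312 to 10527159 gene counts per library, intervals cover the spread between livers and counting error together, and counting weighs most for the members with few counts, such as Acot9. The fitting was tested on simulated counts. Alternatives were edgeR 4.0.16, other size factors, filters, covariates, a replicate block, each spike-in set and each liver left out.

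The members and lists were chosen with earlier results of these data known. Values in every liver are given for members that passed any test, for the highest member per kb of each role, and for the pairs Hadha with Hadhb and Acad10 with Acad12; of the second list, genes that passed any test are named, with Cpt1a. A gene of the pathway is not reported here. The other members given with values of single livers, at all ages or some (Crat, Acadm, Slc25a20, Acsl1, Acsm5, Acsm3 and Hadh) and the PPAR alpha genes Cyp4a10 and Pdk4 were chosen after their values were seen, as were the fold of 1.3 used for the aged livers and the other folds beside it. Further marker lists were used for cell types: summed normalised counts per library were 2635 to 4733 in young, 2294 to 3025 in middle-aged and 2731 to 4747 in aged livers for Kupffer cells, 1396 to 3109, 1862 to 3913 and 1704 to 3226 for stellate cells, 1342 to 2166, 1381 to 1609 and 1477 to 1639 for endothelial cells, 280.2 to 352, 120.1 to 448 and 223 to 408 for bile duct cells, 339 to 768, 485 to 2134 and 454 to 1359.6 for lymphocytes, and 484 to 649.5, 430.0 to 543 and 259.5 to 804 for the pancreas, nearly all of the last from Cela1.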

Additional observations from a re-analysis of the deposited data

Results flagged for a closer look

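Within each age, a liver was looked at again where its distance to the nearest of the other 3 was a large part of the group's range (Dixon's test at 95%). Of 111 groups of 4 tested, 7 held such a liver, and chance alone gives about 1 in 20 groups. Aged 3 stood out in Slc25a20, at 967 normalised counts where the other aged livers had 802 to 826, and in Acot9, at 48.1 where the others had 31.8 to 33.1. Young 4 stood out in Slc25a20 at 774 (others 686 to 693). Among the middle-aged livers, Acsl4 was high in replicate 4 at 650.5 (others 527 to 548), Mlycd in replicate 1 at 1319 (others 1015 to 1060.3) and Etfa in replicate 2 at 4213 (others 3639 to 3723). Ivd was high in aged 1, at 2344 (others 2027 to 2066). All 7 lay above the rest of their group, and the 2 called members, Slc22a5 and Bdh1, were not among them.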

How the results depend on the processing

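The number of members called depended on the settings. Single members were recomputed only where their unadjusted p was under 0.05 or where they passed the 3-age test: 423 of these values stayed on their side of the threshold, 47 passed it, 34 no longer did and 0 of the fold changes turned sign. These members were picked for a low p, and most alternatives share most of the same livers, so 0 turns of sign says little about the direction. The sign of the other members was not followed in this way, and the balance of signs did shift within the sets. Over all 36, sets A and B had the same sign in 22 members for aged against young and in 17 for middle-aged against young. In aged against young livers, where 1 member was called, the count was 0 with edgeR, 4 with TMM factors, 10 with total gene counts, 2 with at least 10 counts in at least 4 samples, 2 with the spike-in set as covariate, 0 within set A and 4 within set B. In middle-aged against young, where 1 was called, it was 2 with TMM factors, 5 with total gene counts, 3 with only those 2 ages fitted, 2 within set A and 0 within set B. In aged against middle-aged, where 0 were called, it was 2 within set B (Acsl1 and Acsl5, 2 livers against 2). Over the 3 ages, where 2 were called, it was 0 with edgeR, 4 with TMM factors, 9 with total gene counts, 1 without independent filtering and 0 within set A. Of all genes, 172 were called with edgeR in aged against young, 527 with TMM factors, 787 with total gene counts, 137 within set A and 479 within set B. In middle-aged against young, 740 genes were called with TMM factors, 1000 with total gene counts, 251 within set A and 305 within set B. Over the 3 ages, 234 genes were called with edgeR, 879 with TMM factors and 1155 with total gene counts. Leaving out 1 liver at a time gave 0 to 8 calls in aged against young (0 without young 1, young 2 or young 3, 5 without young 4, 8 without aged 1, 2 without middle-aged 3), 0 to 7 in middle-aged against young (0 without young 3 or middle-aged 2, 3 without middle-aged 3 or aged 1, 7 without young 4) and 0 to 6 over the 3 ages (0 without young 1, young 2 or young 3, 1 without aged 3, aged 4 or middle-aged 1, 2 or 4, 5 without middle-aged 3, 6 without young 4 or aged 1). The calls over all genes moved with the liver left out too. They were 237 (without aged 3) to 1291 (without aged 1) in aged against young. In middle-aged against young they were 345 (without middle-aged 2) to 1095 (without aged 1). Over the 3 ages they were 496 (without young 2) to 1637 (without aged 1). The members' median for middle-aged against young was 0.19 in the libraries of set A and -0.014 in the libraries of set B. With the replicate block, 2 members were called in aged against young, 0 in middle-aged against young and 0 over the 3 ages, and 655, 385 and 451 genes in all against 484, 727 and 865 without it. The numbers do not pair the livers: same-numbered livers correlated from -0.303 to 0.159 over 8888 genes, and 3, 0 and 1 of 8 livers correlated best with their own number in the 3 pairs of ages. Set fits rest on 2 livers per age, and Acot9 and Acad12 on few counts.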
